A study of Mus musculus with 18 samples.

Results

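Autophagy genes were followed in bone marrow-derived macrophages (BMDMs) of mice with and without Prep, the gene for the serine protease prolyl endopeptidase. The set was a list of 40 symbols, chosen by name, with earlier results of these data known. All 40 were among the 16314 genes of the count table. All 40 also passed the filter on low counts that left 12021 genes to be tested. The list held 5 genes of the ULK initiation complex, 7 of the class III phosphatidylinositol 3-kinase complexes and their regulators, 5 for the steps that read PI3P or move lipid and ATG9 vesicles, 11 of the conjugation machinery, 5 of the Atg8 family, 5 cargo receptors and 2 for fusion and tethering.

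Autophagy encloses a piece of cytoplasm in a double membrane, the autophagosome, and delivers it to the lysosome for degradation. The ULK kinase complex starts the process, a lipid kinase complex built on VPS34 (Pik3c3) and Beclin 1 (Becn1) marks the site with PI3P, and a pair of ubiquitin-like conjugation systems attaches Atg8-family proteins (LC3 and GABARAP) to the growing membrane, where they hold cargo receptors such as p62 (Sqstm1). In macrophages the pathway also takes part in the clearance of bacteria and damaged organelles and in the restraint of inflammatory signalling. Autophagic flux is a property of proteins and membranes, and mRNA levels do not measure it.

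Expression was measured by bulk RNA-seq in 6 groups of 3 libraries. Bone marrow cells of mice on the C57BL6/J background were cultured with M-CSF at 50 ng/ml for 7 days, which turns precursors into macrophages. M0 cells received no further stimulus, M1 cells were given LPS at 50 ng/ml for 24 h, and M2 cells were given IL-4 and IL-13, each at 20 ng/ml, for 24 h. The Prep-/- cells lacked both alleles in every cell of the animal and were compared with cells of Prep+/- littermates, which carry 1 working allele, so that no group was wild type. In bulk RNA, fewer cells of a kind and less RNA per cell cannot be told apart.

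Totals lay between 19068237 and 22598279 counts per library, and Prep itself was 19.6-fold, 13.4-fold and 13.7-fold lower in Prep-/- M0, M1 and M2 BMDMs. The 8 macrophage markers summed to 10027 to 48180 CPM (counts scaled to library size) and were above 0 in every group. Their sum also moved with genotype, to 30386 to 48180 in Prep-/- M0 against 19002 to 22408 in Prep+/- M0, 31000 to 37043 against 45757 to 47208 in M1, where Prep-/- was lower, and 13889 to 19565 against 10027 to 12203 in M2, without overlap in any state. Marker lists for erythroid, T, mast and dendritic cells stayed at or below 2.64 CPM. Within that range dendritic cell markers (4 genes) were at 0.877 to 1.17 CPM in Prep-/- M0 against 0.160 to 0.410 in Prep+/- M0. Granulocyte precursor markers (7 genes) summed to 36.0 to 83.8 CPM in Prep-/- M0 against 17.2 to 22.3 CPM in Prep+/- M0, and B cell markers (3 of 5 genes in the table) to 8.66 to 11.5 against 3.01 to 4.79 CPM. In M1, B cell markers were at 5.09 to 6.96 CPM in Prep-/- against 2.06 to 2.59 in Prep+/-, T cell markers (2 of 5 genes) at 0.865 to 1.40 against 0.225 to 0.323, and stromal markers (5 genes) at 5.60 to 17.0 against 17.9 to 20.2. In M2, granulocyte precursor markers were at 14.1 to 22.5 against 10.7 to 12.7 CPM. The part of these shifts in the knockout differences below was not tested. In 2 libraries, the Prep-/- M0 replicate 3 and the Prep-/- M2 replicate 3, the counts stood apart from both other replicates, with a chi-square per degree of freedom of 111 to 120 against 9.88 to 49.2 for all other replicate pairs. The M0 one also held 14.4 CPM of 4 hepatocyte genes, against at most 0.868 in the other 17 libraries, and was the lowest of its 3 replicates for 17 of the 20 longer autophagy genes. Of the 20 shorter ones it was the highest for 10 and the lowest for 6. The M2 one was the lowest for 15 of the 20 shorter and 17 of the 20 longer. Values without them are given beside knockout calls of the 40 members that change, and beside some other results. None are given for the 53 further genes counted last.

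On the scale of CPM per kilobase of exons, which allows genes to be set beside each other, Gabarap, an LC3 relative of the GABARAP branch, had the highest mean over the 6 groups at 406, followed by Sqstm1, the ubiquitin-binding receptor p62, at 97.8. Gabarapl1 followed at 37.3, Map1lc3b (LC3B) at 29.2 and Map1lc3a (LC3A) at 22.4, which completed the first 5 places. The order depended on the length used. By the longest transcript, Gabarap and Sqstm1 still came first, Map1lc3b (53.8 CPM per kilobase) stood before Gabarapl1 (41.5), and Tax1bp1 (39.7) took the fifth place, with Map1lc3a seventh at 25.5. Optn, the receptor optineurin, and Atg16l2, a relative of the conjugation scaffold Atg16l1, had the lowest means, 1.23 and 1.26. By the longest transcript Atg16l2 was the lowest at 1.62, while Optn at 3.29 stood above Atg2b (2.38) and Epg5 (2.13). In Prep+/- M0 BMDMs Gabarap stood at 305 ± 41.4 CPM per kilobase (SD, n = 3) and Sqstm1 at 77.3 ± 4.37, while Gabarapl1 at 25.6 ± 1.56 and Map1lc3b at 23.4 ± 3.58 lay within the sum of their SDs of each other.

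**Figure D1:**
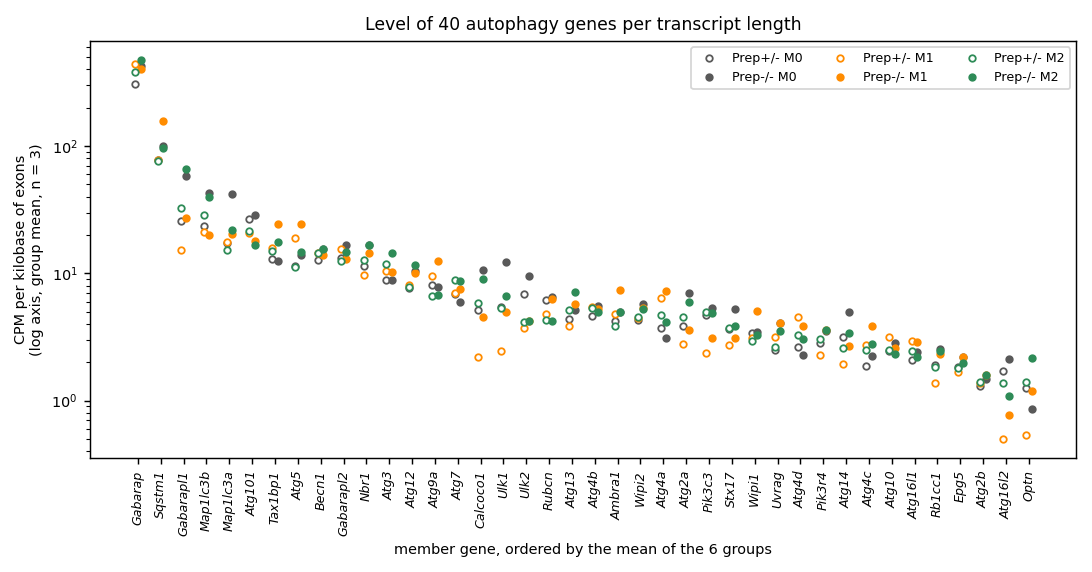
Level of each of the 40 genes in CPM per kilobase of exons on a log axis, as the mean of 3 libraries in each of the 6 groups (open circles Prep+/-, filled circles Prep-/-, grey M0, orange M1, green M2), ordered by the mean of the groups. Gabarap (mean 406) and Sqstm1 (97.8) lie at the left, Optn (1.23) at the right.

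Within each state, Prep-/- BMDMs had more mRNA of autophagy genes than Prep+/- BMDMs wherever a member was called, and no member was called lower. A gene was called at an adjusted p under 0.05 (edgeR quasi-likelihood test, Benjamini-Hochberg over the 12021 genes) and a fold change over 1.5. In M0, 8 of the 40 genes (20.0%) were called higher, where 15.4% of all genes tested were. In M1, 11 of 40 (27.5%) were called higher against a background of 12.3%. In M2, 3 of 40 (7.50%) were called higher against 6.37%, so that the M0 and M2 shares were close to the background and the M1 share was above it. Among all genes, 17.2%, 10.2% and 9.82% were called lower in M0, M1 and M2, where the members had 0 each. At an unadjusted p under 0.05, 2, 1 and 0 members were lower in the 3 states, and DESeq2 also called 0 lower. By the p limit alone, 18, 20 and 8 members were higher (background 24.3%, 19.7% and 11.6%) and 1, 0 and 0 lower (background 24.2%, 16.6% and 13.1%). The median log2 fold change over the 40 genes was 0.27, 0.37 and 0.23, against 0.02, 0.04 and 0.03 over all genes tested.

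The knockout comparisons of the 3 states use separate libraries but come from the same fit. Whether libraries of different states came from the same mice is not given in the sources used here. The Prep-/- libraries lay wholly above the Prep+/- libraries for 21, 23 and 16 members in M0, M1 and M2 (background 25.6%, 29.8% and 21.2%) and wholly below for 3, 1 and 2 (background 27.1%, 27.1% and 20.9%). Gabarapl1 and Calcoco1 were called higher in all 3 states, 2 of 40 members, where 1.56% of all genes were, and 0 members were lower in all 3, where 2.70% of genes were. Without the Prep-/- M0 replicate 3, 12 members were called higher in M0, among them Ulk2, Rb1cc1, Nbr1 and Stx17. That was 30.0% of the members against 16.7% of all genes, so that the closeness of the M0 share to the background rests on that library. Without the Prep+/- M0 replicate 3 or the Prep-/- M0 replicate 1, Optn was called lower there. The M2 count moved between 1 and 5 when single libraries were left out, with 1 without the Prep+/- M2 replicates 1 or 3 or the Prep-/- M2 replicate 1, and 5 without the Prep-/- M2 replicate 3. Without both libraries that stand apart it was 6 (15.0% of the members against 8.77% of all genes), with Map1lc3a, Map1lc3b and Atg12 (0.61, edgeR adjusted p = 5.87e-05) added.

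**Figure D2:**
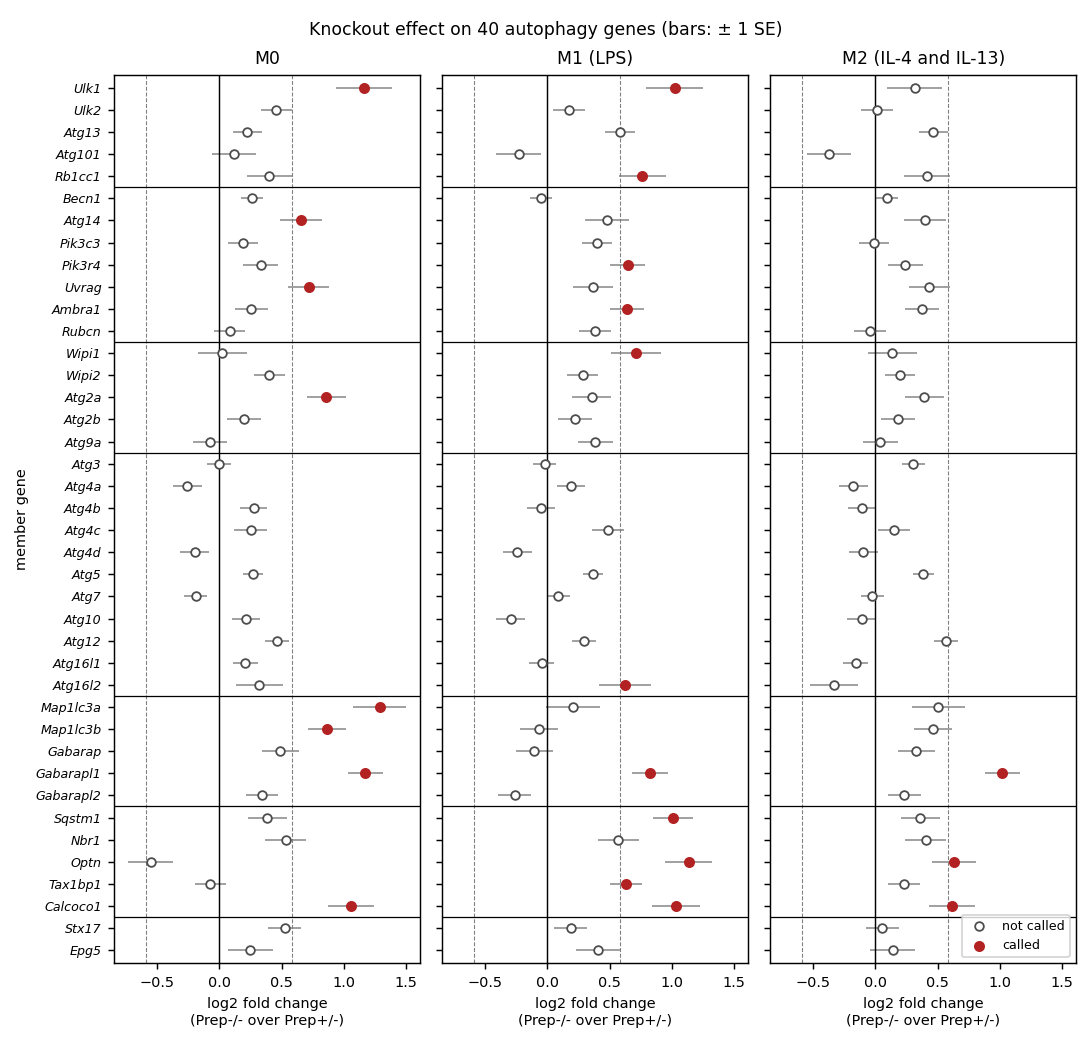
Log2 fold change of Prep-/- over Prep+/- BMDMs for the 40 genes in M0, M1 and M2 (points, with bars of 1 SE from the fit to 18 libraries), grouped by role from the ULK complex at the top to fusion at the bottom. Red points are called, open points are not, and dashed lines mark a 1.5-fold change. All 8, 11 and 3 called points lie on the right of 0.

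**Figure D3:**
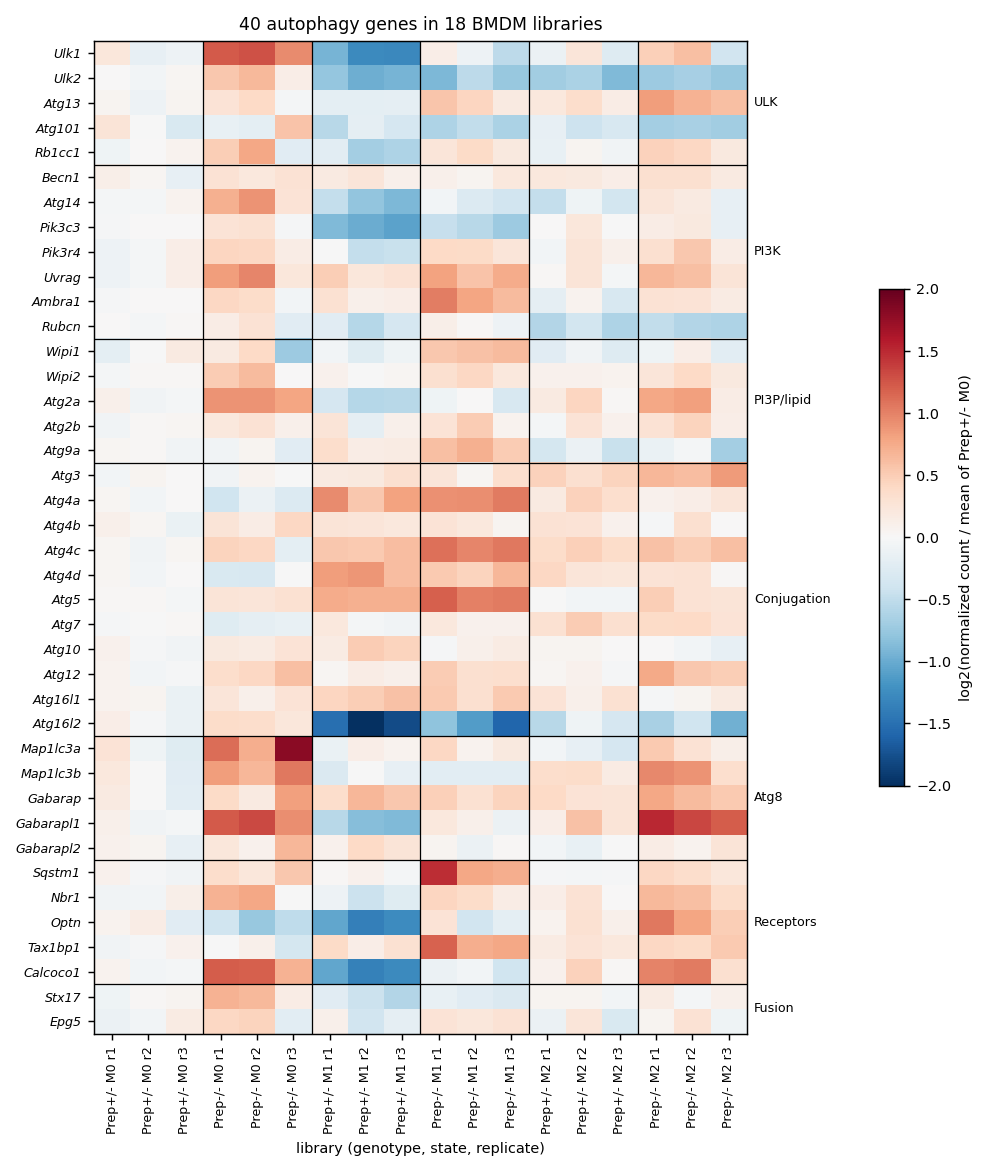
Log2 of the normalized count of the 40 genes in the 18 libraries, relative to the mean of the Prep+/- M0 libraries (red higher, blue lower, colours end at 2 on either side). The Prep-/- M0 columns are red for Ulk1, Map1lc3a, Gabarapl1 and Calcoco1, and Atg16l2 is blue in all 6 M1 columns.

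The Atg8-family genes are described first, since one of them was called higher in all 3 states. Gabarapl1 encodes a GABARAP-branch protein that takes part in autophagosome maturation. It had 2145, 1915 and 1962 normalized counts (counts divided by the relative effective library size) in the Prep+/- M0 libraries and 4692, 5030 and 3837 in the Prep-/- M0 libraries. In M1 it had 1369, 1116 and 1088 in Prep+/- and 2312, 2161 and 1857 in Prep-/- cells, and in M2 2208, 3019 and 2405 against 5740, 5046 and 4670. In each state the lowest Prep-/- library lay above the highest Prep+/- library. The log2 fold change (± SE) of Prep-/- over Prep+/- was 1.17 ± 0.14, edgeR adjusted p = 9.14e-06 in M0, 0.82 ± 0.14, edgeR adjusted p = 5.33e-04 in M1 and 1.02 ± 0.14, edgeR adjusted p = 9.44e-05 in M2, and the call held in each state without any single library. The effect was not called different between states, at differences of -0.35 to 0.19 with adjusted p of 0.213 to 0.667. LPS lowered Gabarapl1 in both genotypes, with log2 fold changes of -0.75 ± 0.14, edgeR adjusted p = 2.79e-04 in Prep+/- and -1.10 ± 0.14, edgeR adjusted p = 5.86e-06 in Prep-/- BMDMs.

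Calcoco1, an ER-phagy receptor of the TAX1BP1 and NDP52 family, was the other gene called higher in all 3 states. It had 823, 753 and 763 normalized counts in Prep+/- M0 against 1800, 1788 and 1264 in Prep-/- M0 libraries, and 378, 307 and 322 against 717, 749 and 592 in M1. In M2 it had 829, 1074 and 794 against 1559, 1607 and 969, where the groups overlapped, since the Prep-/- replicate 3 lay below the Prep+/- replicate 2. The log2 fold change was 1.05 ± 0.18, edgeR adjusted p = 2.27e-04 in M0, 1.03 ± 0.19, edgeR adjusted p = 8.96e-04 in M1 and 0.62 ± 0.18, edgeR adjusted p = 0.0217 in M2. The M2 call was lost (adjusted p 0.0869 to 0.101) without the Prep+/- M2 replicates 1 or 3 or the Prep-/- M2 replicates 1 or 2, and at 0.0825 when only the M2 libraries entered the fit, while the M0 and M1 calls held without any single library. LPS lowered Calcoco1 as well, at -1.21 ± 0.19, edgeR adjusted p = 4.94e-05 in Prep+/- and -1.24 ± 0.19, edgeR adjusted p = 2.98e-05 in Prep-/- BMDMs.

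The promoters of Gabarapl1 and Calcoco1, which were higher in all 3 states, and of Sqstm1 and Optn, whose knockout effect was called different between states, are shown as the 250 bases before the transcription start in the RefSeq promoter table (mouse build GRCm38.p6, read 5′ to 3′ on the gene's strand), in lower case with matches to 6 searched motifs in capitals. The windows are chr6:129532942-129533191 (plus strand), chr15:102722179-102722428, chr11:50210821-50211070 and chr2:5064118-5064367 (minus strand).
Gabarapl1: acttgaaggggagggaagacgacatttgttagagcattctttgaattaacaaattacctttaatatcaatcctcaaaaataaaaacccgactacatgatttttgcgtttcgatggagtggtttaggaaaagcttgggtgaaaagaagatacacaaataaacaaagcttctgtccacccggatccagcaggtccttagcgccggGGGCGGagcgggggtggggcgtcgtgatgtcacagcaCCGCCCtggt
Calcoco1: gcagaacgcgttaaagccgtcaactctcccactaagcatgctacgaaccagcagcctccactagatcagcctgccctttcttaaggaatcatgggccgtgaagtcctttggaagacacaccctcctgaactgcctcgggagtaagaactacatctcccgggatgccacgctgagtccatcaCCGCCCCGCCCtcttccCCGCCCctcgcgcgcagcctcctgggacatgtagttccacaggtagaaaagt
Sqstm1: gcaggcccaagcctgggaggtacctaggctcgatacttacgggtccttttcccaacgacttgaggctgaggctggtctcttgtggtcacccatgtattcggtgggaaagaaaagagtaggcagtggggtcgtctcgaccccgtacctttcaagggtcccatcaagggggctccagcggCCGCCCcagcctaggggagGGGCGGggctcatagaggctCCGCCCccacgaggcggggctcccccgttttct
Optn: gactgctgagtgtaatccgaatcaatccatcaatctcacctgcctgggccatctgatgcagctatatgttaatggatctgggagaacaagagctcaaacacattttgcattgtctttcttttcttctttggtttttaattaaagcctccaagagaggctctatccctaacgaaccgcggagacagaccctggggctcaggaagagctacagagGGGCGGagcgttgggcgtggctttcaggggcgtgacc

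Only the SP motif GGGCGG, read on both strands (CCGCCC), was found in these 4 windows, once in Optn, 37 bases before the start, at 2 places in Gabarapl1 (47 and 10 bases before) and at 3 places each in Calcoco1 (69, 64 and 52 bases before, the first pair sharing a base) and Sqstm1 (72, 53 and 33 bases before). The table held promoters of 33 of the 40 genes, 38 in all. The SP motif was in 57.9% of them, in 56.6% of the promoters of the genes tested and in 32.7% of all 32851 promoters. CACGTG, the E-box core read by TFEB and related lysosomal regulators, was in 10.5% of the members' promoters (Atg3, Atg5, Atg7 and Rubcn) and in 8.33% of those of the genes tested. The FOXO motif GTAAACA was in 0 of the 38, against 2.19% of those of genes tested. The antioxidant response letters TGACNNNGC were in 7.89% against 11.8%, the PU.1 core GAGGAA in 15.8% against 22.7% and the NF-Y box CCAAT in 26.3% against 35.5%, all on both strands. The antioxidant letters were in Atg13, Tax1bp1 and Ulk2, and the PU.1 core in Atg101, Atg2b, Atg3, Atg5, Pik3r4 and Tax1bp1. The knockout effect of Tax1bp1, whose promoter is not printed above, was also called different between states. Such matches describe letters in a window and do not show binding. Promoters of Rb1cc1, Becn1, Pik3c3, Atg12, Atg16l1, Map1lc3a and Epg5 are not shown.

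Of the other 4 Atg8 genes, Map1lc3a and Map1lc3b were called higher in Prep-/- BMDMs in M0, and none was called between genotypes in M1 or M2. Map1lc3b encodes LC3B, the usual marker of autophagosomes. It had 4361, 3733 and 3209 normalized counts in Prep+/- M0 against 6717, 6001 and 7828 in Prep-/- M0 libraries, without overlap, and 3099, 3727 and 3356 against 3246, 3241 and 3251 in M1, where the 3 Prep-/- libraries lay inside the Prep+/- range. In M2 it had 4793, 4858 and 4234 against 7355, 7049 and 4745, with the Prep-/- replicate 3 down among the Prep+/- libraries. The log2 fold change was 0.86 ± 0.15, edgeR adjusted p = 2.70e-04 in M0, -0.06 ± 0.15, edgeR adjusted p = 0.766 in M1 and 0.46 ± 0.15, edgeR adjusted p = 0.0363 in M2. The M2 value was under the fold limit, and was 0.64 and called (adjusted p 0.00160) without the Prep-/- M2 replicate 3. The M1 value was 0.01 without the Prep+/- M1 replicate 2. Transcripts of 5 further mouse genes match Map1lc3b over at least 300 bases at 93.2% to 98.7% identity, and reads shared with them could move its counts.

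Map1lc3a encodes LC3A, a close relative of LC3B. It had 583, 456 and 411 normalized counts in Prep+/- M0 against 1049, 797 and 1687 in Prep-/- M0 libraries. The replicate 3 that stands apart was the highest, and the groups did not overlap without it either. In M1 it had 442, 528 and 508 against 647, 507 and 552, and in M2 465, 431 and 382 against 695, 592 and 526. In M0 the log2 fold change was 1.29 ± 0.21, edgeR adjusted p = 1.47e-04, the largest rise of any member in the 3 knockout comparisons. Without the Prep-/- M0 replicate 3 it was 0.93, below Gabarapl1 (1.28), Ulk1 (1.26) and Calcoco1 (1.20) in the same fit. It was 0.21 ± 0.21, edgeR adjusted p = 0.469 in M1 and 0.51 ± 0.21, edgeR adjusted p = 0.0955 in M2. The M2 value was 0.60 without the Prep-/- M2 replicate 3 (adjusted p 0.0620), and 0.60 and called without both libraries that stand apart (adjusted p 0.00777).

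Gabarap and Gabarapl2, which with Gabarapl1 make up the GABARAP branch, were not called in any state. Gabarap had 16558, 14573 and 12605 normalized counts in Prep+/- M0 against 19110, 16527 and 25687 in Prep-/- M0 libraries, 18571, 23048 and 21112 against 20301, 18066 and 19904 in M1, and 19244, 17657 and 17499 against 24819, 22543 and 20996 in M2. The genotypes overlapped in M0 and M1 and did not in M2. The log2 fold changes were 0.49 ± 0.15, edgeR adjusted p = 0.0125 in M0, -0.11 ± 0.15, edgeR adjusted p = 0.597 in M1 and 0.33 ± 0.15, edgeR adjusted p = 0.116 in M2, and the M0 value reached 0.60 and a call without the Prep-/- M0 replicate 2. The lowest M0 value of Gabarap under the alternative fits was 0.29. The Prep-/- M0 replicate 3, which stands apart, had the highest M0 count of Gabarap. Gabarapl2 had 1286, 1265 and 1086 against 1416, 1287 and 1911 in M0, 1282, 1604 and 1450 against 1262, 1116 and 1238 in M1, and 1165, 1094 and 1208 against 1348, 1278 and 1448 in M2, at 0.34 ± 0.13, edgeR adjusted p = 0.0393, -0.26 ± 0.13, edgeR adjusted p = 0.128 and 0.23 ± 0.13, edgeR adjusted p = 0.213. In M1 every Prep-/- library of Gabarapl2 lay below every Prep+/- library, the opposite order to M0 and M2. The lowest M0 value of Gabarapl2 under the alternative fits was 0.16, and the Prep-/- M0 replicate 3 had its highest M0 count. Transcripts of 7 other genes match Gabarapl2 over at least 300 bases at 90.6% to 99.4% identity.

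Between M0 and M1 the knockout effect on 4 of the 5 Atg8 genes was called lower in M1, where 9.15% of all genes tested were. The difference of the log2 fold changes (M1 minus M0) was -1.08 ± 0.30, edgeR adjusted p = 0.0163 for Map1lc3a, -0.93 ± 0.22, edgeR adjusted p = 0.00625 for Map1lc3b, -0.61 ± 0.19, edgeR adjusted p = 0.0257 for Gabarapl2 and -0.59 ± 0.21, edgeR adjusted p = 0.0481 for Gabarap. The calls of Map1lc3a and Map1lc3b held without any single library of the 12. That of Gabarapl2 was lost without 5 of them (the Prep+/- M0 replicate 3, the Prep-/- M0 replicate 3, the Prep+/- M1 replicates 2 and 3 and the Prep-/- M1 replicate 2), with differences of -0.42 to -0.60 and adjusted p of 0.0486 to 0.0762. That of Gabarap was lost without 9, all but the Prep+/- M0 replicate 1, the Prep-/- M0 replicate 2 and the Prep+/- M1 replicate 1, and its difference was -0.40 (adjusted p 0.107) without the Prep-/- M0 replicate 3. LPS lowered Map1lc3a (-1.05 ± 0.21, edgeR adjusted p = 5.02e-04) and Map1lc3b (-1.08 ± 0.15, edgeR adjusted p = 1.92e-05) in Prep-/- BMDMs and left them at 0.03 ± 0.21 and -0.15 ± 0.15 in Prep+/- BMDMs, not called. Without the Prep-/- M0 replicate 3 the fall of Map1lc3a in Prep-/- cells was -0.70.

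**Figure D4:**
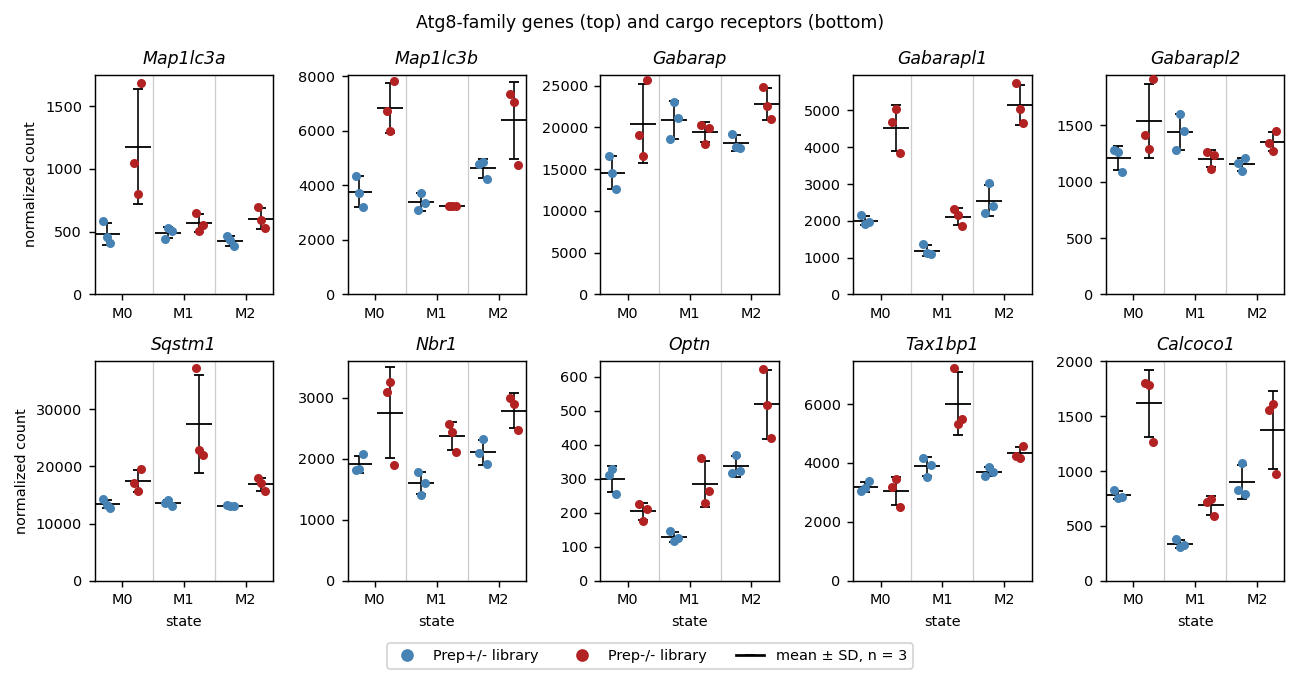
Normalized counts of the 5 Atg8-family genes (top) and the 5 cargo receptors (bottom) in each library (blue Prep+/-, red Prep-/-), with the mean and SD of 3 libraries, by state, on linear axes from 0. Gabarapl1 and Calcoco1 have higher means in Prep-/- in each state, though the genotypes overlap for Calcoco1 in M2. Map1lc3b is higher in Prep-/- in M0 and not in M1, and Sqstm1 and Optn are higher in Prep-/- in M1.

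Of the 5 cargo receptors, Sqstm1, Optn, Tax1bp1 and Calcoco1 were called higher in Prep-/- M1 BMDMs, where 12.3% of all genes were, and Nbr1 was not. Sqstm1 had 13621, 14202 and 12996 normalized counts in the Prep+/- and 37243, 22809 and 22080 in the Prep-/- M1 libraries, so that every Prep-/- library was above the Prep+/- range and replicate 1 was far above the other two. Its log2 fold change in M1 was 1.01 ± 0.16, edgeR adjusted p = 2.89e-04, and 0.72 with the call kept without the Prep-/- M1 replicate 1. In M0 Sqstm1 had 14238, 13255 and 12747 against 17166, 15744 and 19590, and in M2 13217, 13066 and 13131 against 17911, 17113 and 15630. The genotypes did not overlap there either, but the values (0.38 ± 0.16, edgeR adjusted p = 0.0531 in M0 and 0.36 ± 0.16, edgeR adjusted p = 0.103 in M2) were not called. The difference of its effect between M1 and M0 was 0.62 ± 0.22, edgeR adjusted p = 0.0494. That call was lost without any of 9 of the 12 libraries, all but the Prep-/- M0 replicate 3 and the Prep-/- M1 replicates 2 and 3, and the difference was 0.34 (adjusted p 0.114) without the Prep-/- M1 replicate 1. LPS left Sqstm1 at 0.02 ± 0.16 in Prep+/- BMDMs, and raised it by 0.65 ± 0.16, edgeR adjusted p = 0.00223, in Prep-/- BMDMs. With the replicate number as a block, the log2 fold change was 0.57 (adjusted p 0.0362), under the fold limit, and it was 0.36 without the Prep-/- M1 replicate 1. The call was also lost at 0.58 without the Prep-/- M0 replicate 2. Sqstm1 shares exon sequence with Mrnip on the opposite strand.

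Optn, the receptor optineurin that links ubiquitinated mitochondria and bacteria to LC3, had the largest difference in knockout effect between states among the members. In M0 it had 313, 329.9 and 255 normalized counts in Prep+/- and 226, 176 and 211 in Prep-/- libraries, so that Prep-/- was wholly below. In M1 it had 146, 117 and 126 against 361, 229 and 263, and in M2 316, 371 and 322 against 622, 518 and 419, and Prep-/- was wholly above in both. The log2 fold change was -0.55 ± 0.18, edgeR adjusted p = 0.0190 in M0, past the p limit and under the fold limit, 1.13 ± 0.19, edgeR adjusted p = 4.40e-04 in M1 and 0.63 ± 0.18, edgeR adjusted p = 0.0162 in M2. The M0 value reached a call at -0.67 without the Prep+/- M0 replicate 3 and at -0.63 without the Prep-/- M0 replicate 1. The M2 call was lost without the Prep+/- M2 replicates 1 (adjusted p 0.0748) or 3 (0.0643) or the Prep-/- M2 replicate 1 (0.0991). The effect was higher in M1 than in M0 by 1.68 ± 0.26, edgeR adjusted p = 3.35e-04, and higher in M2 than in M0 by 1.18 ± 0.25, edgeR adjusted p = 0.00958, against backgrounds of 12.0% and 4.53% of genes called so. Both differences use the M0 libraries, and both calls held without any single library of the 12 compared. LPS lowered Optn in Prep+/- BMDMs (-1.21 ± 0.19, edgeR adjusted p = 4.48e-05) and left it at 0.48 ± 0.18 in Prep-/- BMDMs. IL-4 and IL-13 left it at 0.17 ± 0.18 in Prep+/- and raised it by 1.35 ± 0.18, edgeR adjusted p = 1.82e-05, in Prep-/- BMDMs. Optn has few counts per kilobase, and its lowest library had 117 normalized counts.

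Tax1bp1, a ubiquitin receptor that also restrains inflammatory signalling, had 3055, 3155 and 3387 normalized counts in Prep+/- and 3173, 3442 and 2520 in Prep-/- M0 libraries, which overlapped. In M1 it had 4176, 3524 and 3938 against 7232, 5322 and 5494, and in M2 3568, 3861 and 3692 against 4252, 4177 and 4586, without overlap. Its effects were -0.07 ± 0.13, edgeR adjusted p = 0.671 in M0, 0.63 ± 0.13, edgeR adjusted p = 0.00160 in M1 and 0.23 ± 0.13, edgeR adjusted p = 0.211 in M2. The M0 value turned to 0.05 without the Prep-/- M0 replicate 3, and the M1 value was under the fold limit without the Prep+/- M1 replicate 2 (0.57) or the Prep-/- M1 replicate 1 (0.48). The effect was higher in M1 than in M0 by 0.70 ± 0.18, edgeR adjusted p = 0.0102, and by 0.58 without the Prep-/- M0 replicate 3 and 0.55 without the Prep-/- M1 replicate 1, both under the fold limit. LPS raised Tax1bp1 by 0.98 ± 0.13, edgeR adjusted p = 7.21e-06, in Prep-/- BMDMs and left it at 0.28 ± 0.13 in Prep+/- BMDMs. Nbr1, the receptor that resembles p62, was not called in any comparison. Its knockout effect of 0.53 ± 0.16 in M0, 0.57 ± 0.16 in M1 and 0.40 ± 0.16 in M2 was past the p limit in M0 and M1 (adjusted p 0.0134 and 0.0137), and it was called in M0 at 0.74 without the Prep-/- M0 replicate 3.

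Of the ULK complex, Ulk1 and Rb1cc1 were higher in Prep-/- BMDMs. Ulk1, the kinase that starts autophagy, had 1014, 768 and 806 normalized counts in Prep+/- and 2026, 2093 and 1658 in Prep-/- M0 libraries, 451, 356 and 351 against 946, 807 and 601 in M1, and 799, 1015 and 724 against 1194, 1302 and 662 in M2. The genotypes did not overlap in M0 and M1 and did in M2, where the Prep-/- replicate 3 was the lowest of all M2 libraries. The log2 fold change was 1.16 ± 0.22, edgeR adjusted p = 4.83e-04 in M0 and 1.02 ± 0.23, edgeR adjusted p = 0.00313 in M1, both kept without any single library, and 0.31 ± 0.22, edgeR adjusted p = 0.327 in M2. Without the Prep-/- M2 replicate 3 the M2 value was 0.56 (adjusted p 0.0311), under the fold limit. The differences between states were not called, at -0.14 for M1 minus M0 and -0.85 for M2 minus M0 with adjusted p of 0.774 and 0.0990. The latter was -0.60 (adjusted p 0.178) without the Prep-/- M2 replicate 3. LPS lowered Ulk1 in both genotypes (-1.16 ± 0.23, edgeR adjusted p = 4.38e-04 in Prep+/- and -1.30 ± 0.22, edgeR adjusted p = 1.18e-04 in Prep-/-). Rb1cc1, the scaffold FIP200, was called higher in M1 (0.76 ± 0.19, edgeR adjusted p = 0.00549), and its M0 value of 0.40 ± 0.18 became 0.63 and a call without the Prep-/- M0 replicate 3. Transcripts of other genes match Rb1cc1 (Gm13961, over 4807 bases at 94.8% identity) and Ulk1 (Gm60410, over 316 bases at 93.7%).

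Ulk2, the second ULK kinase, had 1287, 1232 and 1309 normalized counts in the Prep+/- M0 libraries, 747, 646 and 668 after LPS and 785, 824 and 693 after IL-4 and IL-13. In Prep-/- BMDMs it had 1857, 1997 and 1398 in M0, against 684, 890.0 and 754 after LPS and 768, 808 and 752 after IL-4 and IL-13. All stimulated libraries lay below all M0 libraries of their genotype. It fell with LPS (-0.89 ± 0.13, edgeR adjusted p = 2.00e-05 in Prep+/- and -1.17 ± 0.13, edgeR adjusted p = 1.06e-06 in Prep-/-) and with IL-4 and IL-13 (-0.73 ± 0.13, edgeR adjusted p = 5.62e-04 and -1.17 ± 0.13, edgeR adjusted p = 2.01e-06), and these calls held without any single library. Its M0 knockout effect of 0.46 ± 0.13, edgeR adjusted p = 0.00698 was under the fold limit, and 0.59 and a call without the Prep-/- M0 replicate 3. Atg13 and Atg101, which join the kinases to FIP200, were not called between genotypes. Atg13 came closest in M1, at 0.58 ± 0.12, edgeR adjusted p = 0.00164. Atg101 fell in Prep-/- BMDMs with both stimuli (-0.69 and -0.79), but stood at -0.40 and -0.50, with no call, without the Prep-/- M0 replicate 3.

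Of the class III PI 3-kinase genes, Becn1 was not called in any comparison. It had 2164, 2050 and 1786 normalized counts in Prep+/- and 2456, 2309 and 2445 in Prep-/- M0 libraries, without overlap, 2259, 2376 and 2146 against 2153, 2087 and 2312 in M1, and 2322, 2286 and 2202 against 2505, 2499 and 2270 in M2, with overlap. Its log2 fold change was 0.27 ± 0.09, edgeR adjusted p = 0.0201 in M0, -0.05 ± 0.09, edgeR adjusted p = 0.685 in M1 and 0.10 ± 0.09, edgeR adjusted p = 0.467 in M2, under the fold limit in each state, as were its changes with either stimulus (-0.14 to 0.18). Atg14 and Uvrag, which define the alternative VPS34 complexes for autophagosome formation and for endosomal maturation, were called higher in M0, at 0.65 ± 0.17, edgeR adjusted p = 0.00445 and 0.72 ± 0.16, edgeR adjusted p = 0.00187. Without the Prep-/- M0 replicate 2 they were 0.49 and 0.55, under the fold limit. Transcripts of 201 other genes match Uvrag over at least 300 bases at 90.1% to 95.9% identity. Pik3r4, the VPS15 subunit, and Ambra1, which ties Beclin 1 to ULK1, were called higher in M1, at 0.64 ± 0.14, edgeR adjusted p = 0.00284 and 0.64 ± 0.13, edgeR adjusted p = 0.00214. Pik3r4 was under the fold limit without the Prep+/- M1 replicates 2 (0.56) or 3 (0.57), and Ambra1 without the Prep-/- M1 replicate 1 (0.53). Pik3c3, the kinase VPS34 itself, was not called between genotypes (-0.01 to 0.40) and fell with LPS in both (-0.98 ± 0.12, edgeR adjusted p = 3.90e-06 in Prep+/- and -0.77 ± 0.12, edgeR adjusted p = 4.05e-05 in Prep-/-). Atg14 also fell with LPS in both (-0.71 and -0.88). Rubcn, the inhibitor Rubicon that also serves LC3-associated phagocytosis, fell with IL-4 and IL-13 in Prep-/- BMDMs (-0.64 ± 0.13, edgeR adjusted p = 6.17e-04) and stood at -0.52 ± 0.13, edgeR adjusted p = 0.00799, under the fold limit, in Prep+/- BMDMs. Its fall in Prep-/- was -0.54 and not called without the Prep-/- M0 replicate 2.

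Among the genes that read PI3P or move lipid, Atg2a, a lipid transfer protein, was called higher in M0. It had 817, 729 and 745 normalized counts in Prep+/- and 1418, 1416 and 1320 in Prep-/- M0 libraries (0.86 ± 0.15, edgeR adjusted p = 2.82e-04), and the call held without any single library. Wipi1, a PI3P-binding propeller protein, was called higher in M1, with 399, 349 and 389 against 601, 620.0 and 642 and 0.71 ± 0.20, edgeR adjusted p = 0.0117, and at adjusted p 0.0524 without the Prep+/- M1 replicate 2. Wipi2, Atg2b and Atg9a, the membrane scramblase carried on vesicles, were not called between genotypes in any state (-0.07 to 0.40). With LPS in Prep-/- BMDMs, Atg9a rose (0.68 ± 0.14, edgeR adjusted p = 5.40e-04) and Atg2a fell (-0.98 ± 0.16, edgeR adjusted p = 4.96e-05).

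Of the 11 genes of the conjugation machinery, 0, 1 and 0 were called between genotypes in M0, M1 and M2. Among all genes tested, 32.6%, 22.5% and 16.2% were called in either direction. In M0 the 11 genes lay between -0.26 (Atg4a) and 0.46 (Atg12), in M1 between -0.29 (Atg10) and 0.62 (Atg16l2), and in M2 between -0.33 (Atg16l2) and 0.56 (Atg12). Atg12, the ubiquitin-like protein joined to Atg5, was past the p limit in all 3 states and under the fold limit in each, with adjusted p of 8.97e-04, 0.0241 and 4.63e-04. Atg5 behaved likewise, at 0.27 ± 0.08, 0.37 ± 0.08 and 0.39 ± 0.08. Atg16l2 was called higher in M1 (111, 76.1 and 91.1 against 179, 145 and 104, 0.62 ± 0.21, edgeR adjusted p = 0.0272), though the groups overlapped and the call was lost (adjusted p 0.0598 to 0.159) without the Prep+/- M1 replicates 2 or 3 or the Prep-/- M1 replicates 1 or 2. In M0 it had 344, 311 and 288 against 405, 403 and 369 (0.32 ± 0.19, edgeR adjusted p = 0.170), and in M2 214, 295 and 249 against 201, 239 and 161 (-0.33 ± 0.19, edgeR adjusted p = 0.224). Its effect in M2 was lower than in M1, at a difference of -0.96 ± 0.28, edgeR adjusted p = 0.0335, where 7.35% of genes were called so. This call was lost at adjusted p of 0.0535 to 0.0969 without any of 8 of the 12 libraries, all but the Prep+/- M1 replicate 1, the Prep-/- M1 replicate 3, the Prep+/- M2 replicate 1 and the Prep-/- M2 replicate 2. In the final steps, Stx17, the SNARE of the finished autophagosome, and Epg5, a tether to the lysosome, were not called between genotypes. Stx17 in M0 came closest at 0.52 ± 0.13, edgeR adjusted p = 0.00364, and was 0.68 and called without the Prep-/- M0 replicate 3, where the difference of its effect (M2 minus M0) was also called, at -0.62 (adjusted p 0.0138).

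With LPS, genes of the conjugation machinery were among the rises and those of the ULK complex among the falls. The largest fall in both genotypes, that of Atg16l2, was also in a conjugation gene. In Prep+/- BMDMs 3 of the 40 genes rose and 8 fell in M1 against M0 (background 16.7% and 20.9%), and in Prep-/- BMDMs 7 rose and 12 fell (background 20.9% and 21.0%). The members' shares, 7.50% and 20.0% in Prep+/- and 17.5% and 30.0% in Prep-/-, were below the background for rises in both and above it for falls in Prep-/-. The rises in Prep+/- were Atg4a and Atg4d, proteases that process Atg8 proteins, and Atg5. In Prep-/- Atg4a rose most, followed by Tax1bp1 and Atg5, while Atg4b, a further ATG4 protease, was not called in either genotype (0.23 and -0.09). Atg4a had 391, 368 and 383 normalized counts in Prep+/- M0 and 736, 552 and 663 in Prep+/- M1 libraries, and 288, 353 and 314 before and 720.5, 726 and 779 after LPS in those of Prep-/-. It rose by 0.77 ± 0.12, edgeR adjusted p = 3.40e-05, in Prep+/- and by 1.22 ± 0.12, edgeR adjusted p = 2.73e-07, in Prep-/-. Atg5 had 1019, 1022 and 974 before and 1675, 1641 and 1638 after LPS in Prep+/-, against 1198, 1195 and 1240 and then 2295, 2021 and 2070 in Prep-/-, and rose by 0.72 ± 0.08, edgeR adjusted p = 1.71e-06, and by 0.81 ± 0.08, edgeR adjusted p = 4.35e-07. Atg4d had 465, 438 and 456 before and 808, 835 and 694 after LPS in Prep+/- and rose by 0.78 ± 0.12, edgeR adjusted p = 2.65e-05. It also rose in Prep-/- (0.74), as did Atg4c (0.79), which was under the fold limit in Prep+/- (0.56). M1 and M0 did not overlap in any of these.

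In either direction, 11 members were called in Prep+/- (background 37.7%) and 19 in Prep-/- (42.0%). By the p limit alone, 7 were higher and 12 lower with LPS in Prep+/- (background 24.8% and 27.3%) and 12 and 13 in Prep-/- (29.3% and 27.8%). The M1 libraries lay wholly above those of M0 for 13 members and wholly below for 14 in Prep+/- (background 31.1% and 34.1%), and for 12 and 14 in Prep-/- (30.5% and 28.0%).

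The largest fall with LPS was that of Atg16l2, whose counts above gave -1.76 ± 0.20, edgeR adjusted p = 1.87e-06 in Prep+/- and -1.46 ± 0.20, edgeR adjusted p = 9.73e-06 in Prep-/- BMDMs, without overlap. Calcoco1, Ulk1, Ulk2, Pik3c3, Gabarapl1 and Atg14 fell in both genotypes as well. In Prep-/- alone Map1lc3a, Map1lc3b, Atg2a, Stx17 (-0.74) and Atg101 passed both limits, and in Prep+/- alone Optn. Of these 6 genes, Map1lc3a, Map1lc3b and Optn had a called difference between the genotypes. All 11 calls in Prep+/- and 17 of 19 in Prep-/- held without any single library, the exceptions being Sqstm1 and Atg101. The 3 called higher for M1 minus M0 (Optn, Tax1bp1 and Sqstm1, 7.50% of members against 12.0% of genes) and the 4 called lower (against 9.15%) were near or below the background.

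**Figure D5:**
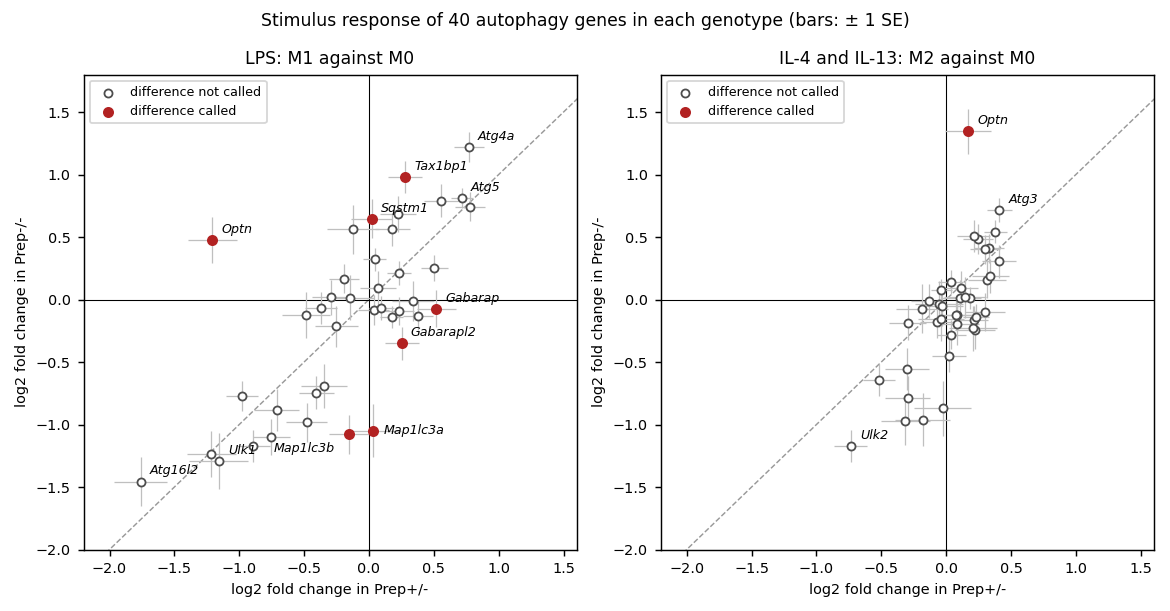
Log2 fold change with LPS (left, M1 against M0) and with IL-4 and IL-13 (right, M2 against M0) of the 40 genes in Prep+/- (horizontal) and Prep-/- (vertical) BMDMs, with bars of 1 SE. Red points are genes whose response was called different between genotypes, and the dashed line marks equal response. Optn lies far above the line in both panels (-1.21 against 0.48 with LPS, 0.17 against 1.35 with IL-4 and IL-13).

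With IL-4 and IL-13 fewer members were called than with LPS in each genotype, as was also so among all genes tested. In Prep+/- BMDMs 0 rose and 1 fell, Ulk2 (background 6.09% and 6.77%). At an unadjusted p under 0.05, edgeR had 8 higher and 3 lower, and DESeq2 called 0 and 1. In Prep-/- BMDMs 2 rose (5.0%) and 6 fell (15.0%) against backgrounds of 14.7% and 15.5%, so that the share of falls was at the background. In either direction these were 1 (12.9%) and 8 (30.2%). By the p limit alone, 3 were higher and 2 lower in Prep+/- (background 9.35% and 9.06%) and 7 and 8 in Prep-/- (22.1% and 21.7%), and M2 libraries lay wholly above those of M0 for 12 members and wholly below for 4 in Prep+/- (22.6% and 23.3%), and for 8 and 8 in Prep-/- (22.4% and 22.0%). The rises were Optn and Atg3, the E2-like enzyme that joins Atg8 proteins to lipid. Atg3 had 1362, 1498 and 1425 normalized counts in Prep-/- M0 and 2272, 2185 and 2577 in Prep-/- M2 libraries and rose by 0.72 ± 0.10, edgeR adjusted p = 1.69e-05, while in Prep+/- it had 1376, 1481 and 1429 and 1975, 1778 and 1938 and changed by 0.41 ± 0.10, edgeR adjusted p = 0.00582, under the fold limit. Among the falls were Ulk2, Atg16l2 (-0.97 ± 0.19, edgeR adjusted p = 6.55e-04), Map1lc3a (-0.96 ± 0.21, edgeR adjusted p = 0.00159) and Ulk1 (-0.87 ± 0.22, edgeR adjusted p = 0.00436). That of Map1lc3a was -0.61 without the Prep-/- M0 replicate 3, and -0.52 and not called without both libraries that stand apart. The difference between genotypes in this response was called for Optn alone, where 4.53% of genes were called higher and 4.13% lower. The M1 and M2 responses of a genotype share its M0 libraries. For Map1lc3a it was -0.78 (adjusted p 0.113) and for Ulk1 -0.85 (adjusted p 0.0990).

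A further 53 genes of the pathway, all of them tested, were counted from 4 lists written by name. Their values come from all 18 libraries, and none is given without the 2 libraries that stand apart. In M0 13 (24.5%) rose and 2 (3.77%) fell in Prep-/- BMDMs, in M1 9 (17.0%) and 4 (7.55%), and in M2 4 (7.55%) and 0, against the backgrounds of 15.4% and 17.2%, 12.3% and 10.2%, and 6.37% and 9.82%. Of 15 receptors of mitophagy, ER-phagy and other selective routes, 5, 3 and 2 were higher in M0, M1 and M2 and 0, 2 and 0 lower. Pink1, the kinase that flags damaged mitochondria, was higher in all 3 states (2.06 ± 0.20, edgeR adjusted p = 1.40e-06 in M0, 1.33 ± 0.20 in M1 and 0.96 ± 0.19 in M2). Ncoa4, the ferritinophagy receptor, had the largest rise of that list in M1 (1.57 ± 0.43, edgeR adjusted p = 0.0107), and Bnip3, a hypoxia-induced mitophagy receptor, the largest fall (-0.77 ± 0.10, edgeR adjusted p = 8.42e-05).

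Of 16 genes of mTORC1, AMPK and nutrient sensing, 3 rose and 2 fell in M0, 4 rose and 1 fell in M1, and none was called in M2. The backgrounds for this and the next lists were 15.4%, 12.3% and 6.37% higher in M0, M1 and M2. For falls they were 17.2%, 10.2% and 9.82%. Deptor, an mTOR inhibitor, rose most in M0 (1.51 ± 0.21, edgeR adjusted p = 3.82e-05) and Rptor, the mTORC1 subunit Raptor, fell most (-0.88 ± 0.20, edgeR adjusted p = 0.00169). Sesn2, a leucine sensor that restrains mTORC1, rose most in M1 (1.37 ± 0.32, edgeR adjusted p = 0.00432) and Prkag1, an AMPK subunit, fell (-0.65 ± 0.12, edgeR adjusted p = 6.75e-04). Of 13 fusion genes, 2, 0 and 1 were higher in M0, M1 and M2 and 0, 1 and 0 lower, with Tecpr1, a tether of autophagosome and lysosome, at 0.81 ± 0.14, edgeR adjusted p = 2.22e-04 in M0 and 1.08 ± 0.14, edgeR adjusted p = 6.66e-05 in M2, and Vamp8, a lysosomal SNARE, at -0.66 ± 0.21, edgeR adjusted p = 0.0217 in M1. Of 9 genes of membrane supply and further partners, 3, 2 and 1 were higher and 0 lower. Wdr45, a PI3P-binding relative of Wipi1, rose most in M0 (1.17 ± 0.19, edgeR adjusted p = 1.18e-04), Trp53inp1, a p53 target that binds LC3, in M1 (1.82 ± 0.25, edgeR adjusted p = 1.06e-04) and Trp53inp2 in M2 (0.80 ± 0.10, edgeR adjusted p = 4.25e-05).

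With LPS, 5 of the 53 rose (9.43%) and 9 fell (17.0%) in Prep+/-, against 16.7% and 20.9% of all genes, and 7 rose (13.2%) and 11 fell (20.8%) in Prep-/- BMDMs, against 20.9% and 21.0%. In Prep+/- BMDMs Bnip3 rose most among receptors (2.10 ± 0.10, edgeR adjusted p = 1.97e-10) and Pink1 fell most (-1.73 ± 0.20, edgeR adjusted p = 2.10e-06). Deptor fell most of the nutrient sensors (-3.36 ± 0.27, edgeR adjusted p = 2.89e-08), of which none rose. Vmp1, an ER scramblase needed for autophagosome formation, rose (1.72 ± 0.13, edgeR adjusted p = 1.58e-08) and Trp53inp1 fell (-2.97 ± 0.25, edgeR adjusted p = 5.76e-08). Of the fusion genes, Vamp8 rose most (0.92 ± 0.21, edgeR adjusted p = 0.00142) and Plekhm1, an adaptor of RAB7, fell (-0.61 ± 0.12, edgeR adjusted p = 6.10e-04). In Prep-/- BMDMs the largest changes of each list were those of the same Bnip3 (1.26), Pink1 (-2.47), Deptor (-4.00), Vmp1 (1.81) and Trp53inp1 (-2.07), with Ddit4, which restrains mTORC1, the largest rise of the nutrient sensors (0.92 ± 0.31, edgeR adjusted p = 0.0174) and Tecpr1 the fall of the fusion genes (-0.87 ± 0.14, edgeR adjusted p = 7.20e-05). With IL-4 and IL-13, 2 rose (3.77%) and 3 fell (5.66%) in Prep+/-, against 6.09% and 6.77% of all genes, and 9 rose (17.0%) and 12 fell (22.6%) in Prep-/- BMDMs, against 14.7% and 15.5%. In Prep+/- Vmp1 (0.94 ± 0.13, edgeR adjusted p = 4.66e-05) and the SNARE Snap29 (0.86 ± 0.14, edgeR adjusted p = 3.04e-04) were the rises and the ER-phagy receptor Retreg1 (-1.98 ± 0.16, edgeR adjusted p = 1.47e-07) the largest fall. Sesn1, another sestrin, was the fall among its nutrient sensors (-0.92 ± 0.16, edgeR adjusted p = 5.38e-04). In Prep-/- the largest rises of a list were Vmp1 (1.16 ± 0.13, edgeR adjusted p = 1.87e-06), Snap29 (1.04 ± 0.14, edgeR adjusted p = 1.85e-05) and Tsc1, an mTORC1 inhibitor (0.72 ± 0.21, edgeR adjusted p = 0.0106), and the largest falls of a list Sesn1 (-1.76 ± 0.16, edgeR adjusted p = 2.93e-07), Retreg1 (-1.74 ± 0.16, edgeR adjusted p = 2.68e-07) and Trp53inp1 (-1.03 ± 0.23, edgeR adjusted p = 0.00151).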

How the data were processed

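Bulk RNA-seq of 18 BMDM libraries, 6 groups of 3 named by genotype and state in the labels, was analysed from the table of gene counts that the authors deposited without normalization. Libraries were made with a stranded mRNA kit. Per the submitters' processing notes, reads were trimmed with Trimmomatic 0.36 and aligned with HISAT2 2.2.1.0 to GRCm39. The counting software's settings, its annotation release and its use of strand are not given in the sources used here, and 30 of the 40 genes overlap a gene on the opposite strand. All sample columns matched a sample (0 left over). The study calls the replicates biological, and whether each came from a separate animal is not given in the sources used here, so that p-values measure the spread between these libraries. Depth was 19068237 to 22598279 counts.

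Genes were kept by edgeR's filterByExpr (12021 of 16314), scaled by TMM and tested with edgeR 4.0.16 (limma 3.58.1, R 4.3.3) by its quasi-likelihood test on all 18 libraries, 1 coefficient per group, with Benjamini-Hochberg adjustment over all genes tested. A gene was called past both an adjusted p of 0.05 and a 1.5-fold change. Differences of knockout effects between states were tested as contrasts in the same fit. Alternatives were DESeq2 1.42.0, its size factors, no filter on low counts, the p limit alone, only the libraries compared, a replicate block, leaving out each library, and, added after seeing the data, leaving out both libraries that stand apart and an offset for transcript length.

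Libraries of the same replicate number deviated together in the M2 knockout comparison (correlations of 0.249, 0.255 and 0.462). They also did so for LPS in Prep-/- BMDMs (0.201, 0.169 and 0.259). In the other comparisons correlations ran from -0.315 (knockout in M0) to 0.245 (M2 against M0 in Prep+/-). Those of the knockout in M0 were all negative. For the M2 knockout and Prep-/- LPS comparisons the pairing rests on the correlations alone. The replicate number entered only as a block in an alternative fit. Unless a block is named, p-values come from fits without it.

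The 40 members, the 53 further genes, the 9 marker lists and the alternatives were chosen with earlier results of these data known. Values per library are given for the 3 largest called rises and falls of each comparison, members called in a difference of effects or in all 3 states, the Atg8 family, Sqstm1 and Becn1. Erythroid, T cell, mast cell, stromal and dendritic cell markers summed to at most 0.185, 1.40, 0.0802, 20.2 and 2.64 CPM. Positions and lengths were read from a GRCm39 annotation, near-identical transcripts were searched with blastn 2.17.0 (at least 90% identity over 300 bases), and promoters are RefSeq's, on GRCm38.p6 and so on another build than the counts. Tested on simulated counts of the M1 knockout comparison (12021 genes, 100 changed at each size), the test recovered 68% of log2 changes of 1 and 90% of those of 2, with 4 false calls among 162. Figures were drawn with matplotlib 3.10.9.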

Additional observations from a re-analysis of the deposited data

Results flagged for a closer look

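The knockout effect (Prep-/- over Prep+/-, log2) differed between states by edgeR's test of the difference itself for 8 genes, at 9 values. Between M1 and M0 it was higher in M1 for Optn by 1.68, for Tax1bp1 by 0.70 and for Sqstm1 by 0.62, and lower for Map1lc3a (-1.08), Map1lc3b (-0.93), Gabarapl2 (-0.61) and Gabarap (-0.59). Between M2 and M0 it was higher in M2 for Optn by 1.18, and between M2 and M1 it was lower in M2 for Atg16l2 (-0.96). The values of Optn, Map1lc3a and Map1lc3b kept their calls without any single library, and the other 5 genes lost theirs without at least 1.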

How the results depend on the processing

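Counts of called members within 1.5 times of those reported came from DESeq2, its size factors and no filter on low counts in all 10 comparisons. With the p limit alone, 19, 20 and 8 members were called for the knockout in M0, M1 and M2, 19 for M1 against M0 in Prep+/-, and 5 and 15 for M2 against M0 in Prep+/- and Prep-/-. Without both libraries that stand apart (chosen after seeing the data), 6 were called for the knockout in M2, 4 for the difference of M1 minus M0, and 2 each for M2 minus M0 and M2 minus M1. With only the libraries compared, M1 minus M0 had 4 and M2 minus M1 had 0, and with a length offset (also chosen after seeing the data) M2 minus M0 had 2. Leaving out single libraries gave 7 to 12, 8 to 13 and 1 to 5 for the knockout in M0, M1 and M2, 11 to 13 and 18 to 21 for M1 against M0 in Prep+/- and Prep-/-, 1 to 2 and 8 to 9 for M2 against M0, and 4 to 7, 1 to 2 and 0 to 2 for the differences M1 minus M0, M2 minus M0 and M2 minus M1. With the replicate block, fitted on the libraries compared, 6, 11 and 3 members were called for the knockout in M0, M1 and M2, 19 for M1 against M0 in Prep-/- and 0 for M2 minus M1. In M0, where the numbers were not found to pair the libraries, the block fit did not call Atg14 (0.63, adjusted p 0.0604) and Uvrag (0.69, adjusted p 0.0571). In the M2 knockout and Prep-/- LPS comparisons, where libraries of the same number deviated together, the block changed the calls of Sqstm1 and, gained, Wipi1 in M1 against M0 in Prep-/-, and no other call. For M2 against M0 in Prep-/- the block fit did not call Map1lc3a (-0.90, edgeR adjusted p 0.0734) and Atg101 (-0.74, edgeR adjusted p 0.0551). The M0 knockout effect of Tax1bp1 reversed to 0.048 without both libraries and lay between -0.19 and 0.048 without single libraries (0.048 without the Prep-/- M0 replicate 3), and that of Map1lc3b in M1 lay between -0.13 and 0.0083 (0.0083 without the Prep+/- M1 replicate 2). Of 841 values of named genes under alternatives, 769 kept direction and call, 63 lost a call, 6 gained one and 3 reversed. The cause of these changes was not tested.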
